A study of Homo sapiens with 3 samples.

Results

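Genes of ion channel subunits were followed across HCC827, a human cell line from an EGFR-mutant lung adenocarcinoma, and across 2 sublines that had become resistant to BIBW2992, the drug afatinib, which blocks the EGFR and ERBB2 kinases covalently. The members were all genes on the array whose symbol begins with KCN, CACN or CLCN, or with SCN, ANO, TRPC, TRPM or TRPV followed by a number. They came to 167 of the 18852 named genes, measured by 288 probes. By role, 85 were potassium channel genes, 25 calcium channel genes, 12 sodium channel genes, 6 CLC genes, 9 anoctamins and 19 TRP genes. TRPC2, a pseudogene in humans, was counted with the TRP genes by its symbol. The remaining 11 matched by symbol alone and encode no subunit: antisense and other noncoding transcripts, KCNRG, TRPC4AP and TRPC5OS. Each gene was represented by its brightest probe above background, and a gene with no probe above background on any array was counted as silent.

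The groups were parental HCC827 cells, labelled as sensitive to the drug, and the resistant lines HCC827-BR1 and HCC827-BR2, called clone 1 and clone 2 here. Resistant cells had been grown from HCC827 over 3 to 4 months under rising BIBW2992, to a final 2 µM, and each line came from an individual clone. Total RNA of each line was hybridised to 1 Illumina HumanHT-12 v3 array, so that each value stands on 1 array. It is not stated in the labels if drug was present at harvest or if the clones arose independently, and no array was labelled as an untreated clone. Selection, cloning and time in culture therefore cannot be told apart. In a whole culture, a lower signal can also mean fewer cells that carry a transcript or less of it per cell, which cannot be told apart either.

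Ion channel pores are built from families of related subunits. Voltage-gated potassium, sodium and calcium channels open on depolarization and shape action potentials in neurons and muscle. Inward rectifier and two-pore potassium channels set the resting potential in many cell types, epithelia included. Auxiliary subunits (KCNAB, KCNE, KCNIP, KCNMB, CACNA2D, CACNB, CACNG and the SCN beta chains) alter the trafficking and gating of the pores. CLC proteins and anoctamins carry chloride or move lipids, and TRP channels pass cations in response to lipids, heat or calcium. In airway epithelium, potassium and chloride channels together drive the transport of salt and water.

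Parental cells showed 8 of 10 lung adenocarcinoma markers above background, among them EGFR, NKX2-1 and EPCAM, and each clone showed 7, with NKX2-1 below background in both. All 8 had a lower normalized log2 signal in both clones. In the order of parental cells, clone 1 and clone 2, EPCAM read 14.05, 10.64 and 8.99, CDH1 13.11, 9.24 and 7.78, and NAPSA 11.00, 6.81 and 5.77. EGFR read 13.35, 12.63 and 8.90, lowest in clone 2, while KRT7 in clone 2 was within 0.5 of parental cells. These epithelial and lung markers were thus lower in the same lines in which channel genes differed, and their part in the channel differences was not tested. No fibroblast or striated muscle marker of those on the array (5 and 3) exceeded background on any array. The leukocyte genes PTPRC and CD3E were below background as well, as were CDH5, VWF and KDR of endothelium and SYP, CHGA and MAP2 of neurons. CD14, PECAM1, ENO2 and STMN2 were above background on all 3 arrays, and LYZ, a leukocyte marker, in parental cells and clone 2. CD14 read 7.24, 5.57 and 5.80, highest in parental cells, and ENO2 8.85, 10.72 and 10.16, lowest there. Background thresholds were signals of 69.3, 66.1 and 70.7 on the arrays of parental cells, clone 1 and clone 2, and 35.1%, 34.5% and 33.8% of the 48803 probes exceeded them.

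Most channel genes were silent in all 3 lines. A total of 68 members (40.7%) exceeded background on at least 1 array, where 63.2% of all named genes did. The other 99 were below it on every array. Detected members numbered 51 in parental cells against 47 in clone 1 and 46 in clone 2, and 31 were above background on all 3 arrays. A further 11 were detected in parental cells alone, 9 in parental cells and 1 clone, and 17 in clones without parental cells. Of those 17, 5 were seen in both clones, 5 in clone 1 alone and 7 in clone 2 alone. Counting any probe, 32 of the 68 members and 9797 of the 11914 detected genes were above background on all 3 arrays. For the other patterns the share over all genes was not taken, so these counts cannot be read as particular to channel genes. Many members lay close to the threshold: 24 of the 68 never exceeded it by more than 1.2-fold. Among 576 probes of olfactory, taste and vomeronasal receptors and keratin-associated proteins, which should be silent here, 3.99% passed on each array, so that some of the dim members called detected may be background.

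The threshold itself passed between neighbouring values. Just inside it were KCNH3, at a signal of 66.3 in clone 1, KCNN3, at 70.0 in parental cells, and the noncoding CACNA1C-AS4, at 67.6 in clone 1. Just outside were KCND3, at 69.1 in parental cells, KCNMA1, at 68.0 in parental cells, and CACNA2D1, at 64.7 in clone 1. KCNMA1 encodes the pore of the large-conductance calcium-activated potassium channel, and its auxiliary subunit KCNMB4 was above background in all 3 lines.

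Silent genes were unevenly spread over the roles. Of 34 voltage-gated potassium pore genes 22 were silent, including the 7 KCNA genes on the array, the 3 KCNC genes and the 3 KCND genes. Also silent were 7 of 10 calcium pore genes, among them the L-type genes CACNA1C, CACNA1F and CACNA1S, 6 of 8 CACNG genes and 7 of 9 sodium pore genes. TRPV2, TRPV3, TRPV4, TRPV5 and TRPV6 were silent, which left TRPV1 as the detected gene of that family, at a signal of 69.3 in parental cells and 74.4 in clone 1. Detection was more frequent among anoctamins (7 of 9), TRPC genes (4 of 6) and the calcium and sodium beta subunits (2 of 3 each). Two-pore potassium channels (8 of 15), the CLC family (3 of 6) and alpha2delta subunits (2 of 4) followed, under the 63.2% of all named genes.

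**Figure D1:**
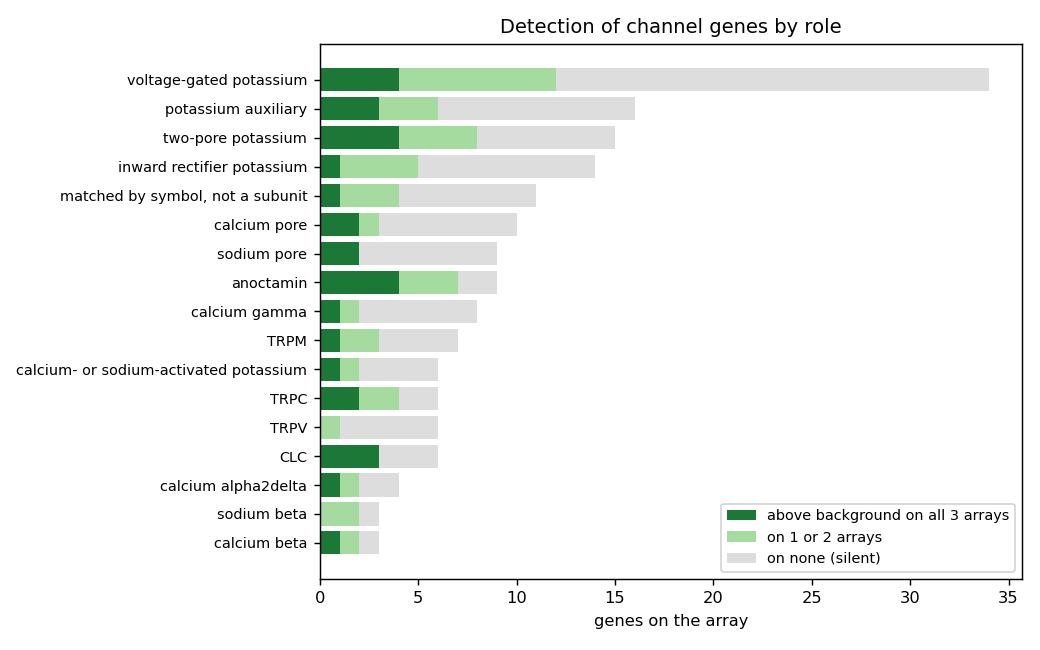
Number of channel genes on the array by role (horizontal axis, genes), split into those above background on all 3 arrays (dark green), on 1 or 2 arrays (light green) and on none (grey). Voltage-gated potassium pores are the most numerous, with 12 of 34 detected, while 7 of 9 anoctamins were detected.

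The comparison of both clones with parental cells asked which channel genes accompanied resistance. Limma, with the clones as replicates and Benjamini-Hochberg adjustment over all 11914 detected genes, called 5 members higher and 3 lower at an adjusted p under 0.05. That is 7.35% and 4.41% of the detected members, where 2.67% and 3.08% of all genes were called. Members higher in the clones were CACNA2D3, KCNJ16, SCN9A, KCNJ13 and CACNA1H, and members lower were KCNQ3, KCNS3 and TRPC6. By the size of the normalized difference, with signals below background taken as they were read, 6 members were 2-fold or more above parental cells in each clone and 5 below (8.82% and 7.35% of members, 4.68% and 5.27% of all genes). For TRPC7, KCNK6 and ANO1 among these the background allows only a bound under 2-fold, given with each gene. A member that entered the table only through the lines in which it was bright had to differ, which holds for CACNA2D3 and KCNJ13 among the 8 called. It also holds for the probes that stood for KCNQ3 and KCNJ16, though each of those genes had another probe above background in parental cells. Each p-value sets a difference against the spread between the 2 clones, with 1 residual degree of freedom and a prior worth 4.08, and takes parental cells to vary like the clones.

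In 36 of the 68 detected members both clones lay within 0.5 of parental cells on the log2 scale. The share of all genes within that range was not taken, so this count cannot be read as particular to channel genes. The median difference from parental cells over the detected members was -0.058 in clone 1 and 0.021 in clone 2, against 0.0082 and 0.0077 over all genes. Both differences share the parental array.

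**Figure D2:**
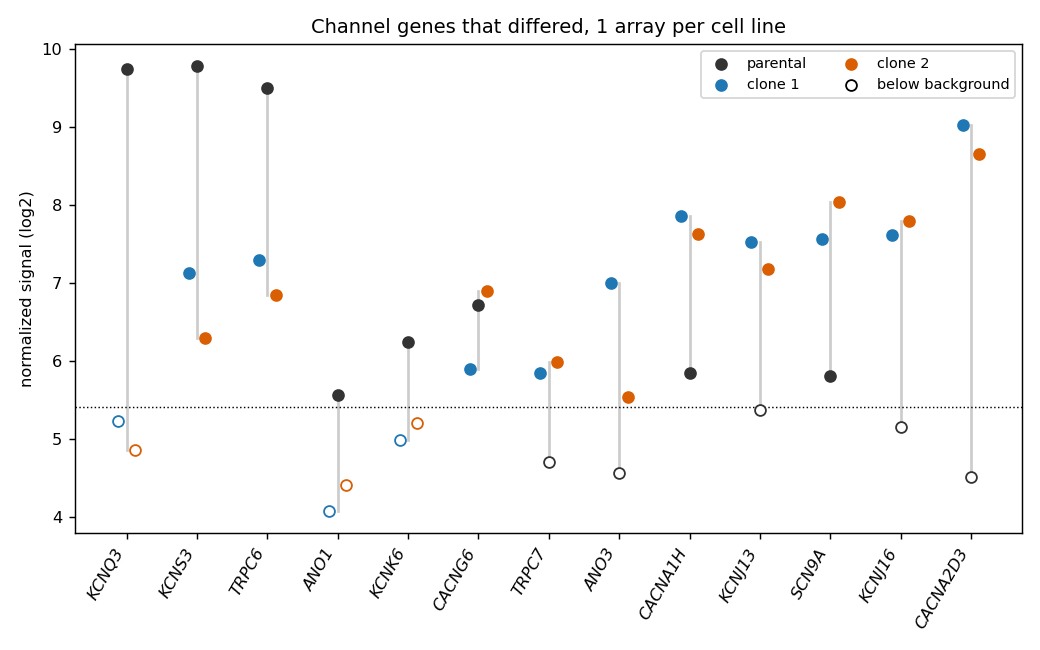
Normalized signal (log2, vertical axis) on the arrays of parental cells (black), clone 1 (blue) and clone 2 (orange) for the 13 members whose normalized signal was at least 2-fold off in both clones, that were called by limma, or that were 2-fold apart between clones. Open circles are below background, and the dotted line is the mean over arrays of the lowest signal above background. For 11 of the 13 both clones lie at least 2-fold off parental cells on the same side, while CACNG6 and ANO3 are 2-fold apart between clones. This split follows from how the genes were chosen. Both clones lie above parental cells for ANO3 as well, and on either side of them for CACNG6.

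Voltage-gated potassium genes gave the widest falls. KCNS3 encodes Kv9.3, a modulatory subunit that forms no channel alone and alters Kv2 pores. Its normalized log2 signal was 9.78 in parental cells against 7.12 in clone 1 and 6.29 in clone 2, above background on each array. Both clones lay far below parental cells. The fall was 8.42-fold (log2 -3.07, SE 0.41, limma adjusted p = 0.0214), 6.30-fold in clone 1 and 11.2-fold in clone 2. A second probe of KCNS3 differed by -3.13, close to the first.

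KCNQ3 encodes a subunit of the M-current channel of neurons. Its brightest probe read 9.75 in parental cells against 5.22 in clone 1 and 4.85 in clone 2, the clones below background. KCNQ3 was thus at least 20.1-fold lower on that probe (limma adjusted p = 0.00445). In the platform annotation this probe is paired with a cDNA clone. The other KCNQ3 probe, paired with the RefSeq transcript, read 6.60, 6.43 and 6.54, a difference of -0.12, so that the fall rests on 1 of 2 probes. When only probes above background on all 3 arrays were used, the second probe stood for the gene and KCNQ3 was not called (adjusted p = 0.840).

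Other Kv genes differed less. KCNB2, the Kv2.2 pore, read 6.43 in parental cells against 5.45 in clone 1 and 5.03 in clone 2, the last below background (limma adjusted p = 0.113). KCNS1, a modulatory subunit related to KCNS3, read 5.39, 6.44 and 6.32, close to 2-fold higher in both clones (adjusted p = 0.120). KCNS1 thus stood on the other side of parental cells from KCNS3. KCNH6, a pore of the ERG family, was near its parental level at 10.31, 10.62 and 10.36, though its other 2 probes were below background on every array. KCNQ1, a pore that pairs with KCNE subunits in epithelia and heart, read 6.88, 6.72 and 6.88, and KCNE1, KCNE2, KCNE3 and KCNE4 were silent. The remaining detected Kv genes, KCNG3, KCNG4, KCNH1, KCNH2, KCNH3 and KCNH8, had mean differences from -0.28 to 0.53 and were not called.

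Inward rectifiers included 2 of the 5 called increases. KCNJ16 encodes Kir5.1, which forms channels with Kir4 subunits, as in kidney tubules. Its log2 signal was 5.15 in parental cells, below background, 7.61 in clone 1 and 7.80 in clone 2. KCNJ16 rose at least 5.02-fold (log2 difference 2.55 from the signals as read, limma adjusted p = 0.0116). Its second probe, for another transcript, read 5.59, 5.40 and 5.80, close to background throughout, a difference of 0.0095. With the 2 probes averaged the difference was 1.28 and no longer passed the test (adjusted p = 0.0711). The Kir4 partners were dim or silent: KCNJ10 read 5.07, 5.47 and 5.14, above background in clone 1 alone, and KCNJ15 was silent. KCNJ2, the neighbour of KCNJ16 on chromosome 17, was silent as well.

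KCNJ13 encodes Kir7.1, known from the choroid plexus and the retinal pigment epithelium. It read 5.37 in parental cells against 7.52 in clone 1 and 7.17 in clone 2. The parental signal of 69.1 lay just under the threshold of 69.3. KCNJ13 rose at least 3.91-fold (limma adjusted p = 0.0277, and 0.0524 with a background offset of 50). KCNJ8 read 5.90, 5.70 and 5.49 and KCNJ14 5.56, 5.13 and 5.43, and neither was called.

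Two-pore potassium genes gave no call. KCNK1 encodes TWIK-1. Its brightest probe read 10.48 in parental cells against 9.26 in clone 1 and 9.50 in clone 2, and a second probe 9.86, 8.41 and 8.64. Both probes were thus lower in both clones, by -1.10 and -1.34 (limma adjusted p = 0.105 for the first). KCNK6, or TWIK-2, read 6.24, 4.98 and 5.20, with both clones below background, and was at least 1.77-fold lower (adjusted p = 0.0936). A second KCNK6 probe differed less, by -0.54 against -1.15 on the first, both from the signals as read. KCNK5, an alkaline-activated channel of epithelia, read 6.12, 5.40 and 5.15 and was at least 1.63-fold lower (adjusted p = 0.179). KCNK2, a channel opened by stretch and lipids, read 6.96, 6.42 and 7.03, lower in clone 1 alone on that probe. A second KCNK2 probe read 6.90, 6.10 and 6.53, lower in both clones, with a difference of -0.58. KCNK3, KCNK4, KCNK7 and KCNK10 had mean differences from -0.030 to 0.30. Of the 8 detected genes of this family, 5 had a mean difference below 0 and 3 above.

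Among auxiliary potassium subunits 6 of 16 were detected and none was called. KCNMB4, which slows the large-conductance calcium-activated channel, read 7.96, 7.30 and 7.0 (difference -0.81, SE 0.28, limma adjusted p = 0.200). KCNMB3, KCNIP3 and KCNAB2 differed by -0.31, -0.063 and -0.087, and KCNAB3 and KCNE5 exceeded background in clone 2 alone. KCNN4, the intermediate-conductance calcium-activated pore, read 5.45, 5.76 and 5.61 (adjusted p = 0.684). KCNN3 exceeded background in parental cells alone, and barely.

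Calcium channel genes held the largest increase among the members. CACNA2D3 encodes the alpha2delta-3 subunit, an extracellular auxiliary protein that brings calcium pores to the membrane. Its log2 signal was 4.51 in parental cells, below background, 9.02 in clone 1 and 8.65 in clone 2. CACNA2D3 was at least 11.0-fold higher (limma adjusted p = 0.00506), at least 12.5-fold in clone 1 and 9.70-fold in clone 2, on its single probe. The other alpha2delta genes did not show this: CACNA2D2 read 5.78, 5.54 and 5.58, and CACNA2D1 and CACNA2D4 were silent.

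CACNA1H encodes Cav3.2, a T-type pore that opens at low voltage. It read 5.84 in parental cells against 7.85 in clone 1 and 7.63 in clone 2, above background on each array. CACNA1H rose 3.73-fold (log2 1.90, SE 0.27, limma adjusted p = 0.0257). Its second probe, below background in parental cells, read 5.03, 5.93 and 6.05, a smaller increase of 0.95. The other T-type genes, CACNA1G and CACNA1I, were silent. CACNA1B, an N-type pore, was near its parental level at 7.29, 7.43 and 7.45, and CACNB3, a cytoplasmic beta subunit, read 8.59, 8.49 and 8.10 (adjusted p = 0.649). CACNA1D, an L-type pore, exceeded background in parental cells alone, and CACNB2 and CACNG8 in clone 2 alone.

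Of the sodium channel genes, SCN9A encodes Nav1.7, a pore of sensory neurons. SCN9A read 5.80 in parental cells against 7.57 in clone 1 and 8.04 in clone 2, above background on each array. It rose 4.02-fold (log2 2.01, SE 0.31, limma adjusted p = 0.0329, and 0.0561 with a background offset of 50). Its second probe read 6.05, 7.31 and 7.96, an increase of 1.59. Both clones were above parental cells on both probes. SCN3A, which encodes Nav1.3 and lies in the same gene cluster on chromosome 2, read 8.74, 8.79 and 9.04 on its brightest probe and 5.46, 6.05 and 6.67 on the next. SCN1A, SCN2A and SCN7A of that cluster were silent. The beta subunits SCN2B and SCN4B just exceeded background in parental cells, at signals of 71.4 each, and were below it in both clones.

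Only 1 of the TRPC channels was called. TRPC6 encodes a cation channel opened by diacylglycerol. It read 9.50 in parental cells against 7.29 in clone 1 and 6.84 in clone 2, above background on each array. TRPC6 fell 5.42-fold (log2 -2.44, SE 0.31, limma adjusted p = 0.0187) on its single probe. TRPC7, of the same subfamily, read 4.70, 5.85 and 5.98, with parental cells below background, and was at least 1.45-fold higher (adjusted p = 0.0740). TRPC1 read 6.80, 6.92 and 7.41 (adjusted p = 0.589). TRPC4 was above background in clone 2 alone.

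Of the other TRP genes, TRPM4, a calcium-activated channel for monovalent cations, read 6.80, 6.52 and 6.57 (limma adjusted p = 0.642). TRPM7, a channel fused to a kinase, exceeded background in clone 1 alone, and TRPM8, a cold receptor, was below it in clone 2 alone. TRPM1, TRPM3, TRPM5, TRPM6, TRPC2 and TRPC5 were silent. TRPC4AP, an adaptor protein that matched by symbol, read 9.08, 9.25 and 9.47. The antisense transcript KCNJ5-AS1 and the gene KCNRG exceeded background in parental cells alone.

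Detected genes of the CLC family and anoctamins were near their parental levels in most cases. CLCN7, a lysosomal exchanger, read 10.80 in parental cells against 11.09 in clone 1 and 11.07 in clone 2 (difference 0.28, SE 0.26, limma adjusted p = 0.599), and OSTM1, its partner, differed by 0.21 (adjusted p = 0.715). The endosomal exchangers CLCN3 and CLCN6 differed by -0.067 and 0.21. ANO6, a lipid scramblase, read 9.24, 9.57 and 9.51, and ANO10 7.42, 7.14 and 7.01. ANO7, ANO8 and ANO9 differed by 0.53, 0.14 and -0.33, without a call, and ANO4 and ANO5 were silent, as were CLCN1, CLCN4 and CLCN5. ANO1, the calcium-activated chloride channel of airway and gut, was dim: it read 5.56 in parental cells and was below background in both clones, at least 1.10-fold lower (adjusted p = 0.0750), with its second probe below background on every array.

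Differences between the clones were few. At least 2-fold apart were 2 of the 68 members (2.94%), where 3.78% of all genes were. ANO3, an anoctamin of neurons, read 4.56 in parental cells, below background, 7.0 in clone 1 and 5.53 in clone 2. The rise was at least 3.07-fold in clone 1 and 1.11-fold in clone 2, both lower bounds (limma adjusted p = 0.216 for the mean of the clones). CACNG6, a gamma subunit of calcium channels, read 6.72, 5.90 and 6.90, lower in clone 1 alone. Its next probe read 5.88, 5.59 and 6.03, a smaller gap with the same order. With 1 array per clone these differences have no test.

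**Figure D3:**
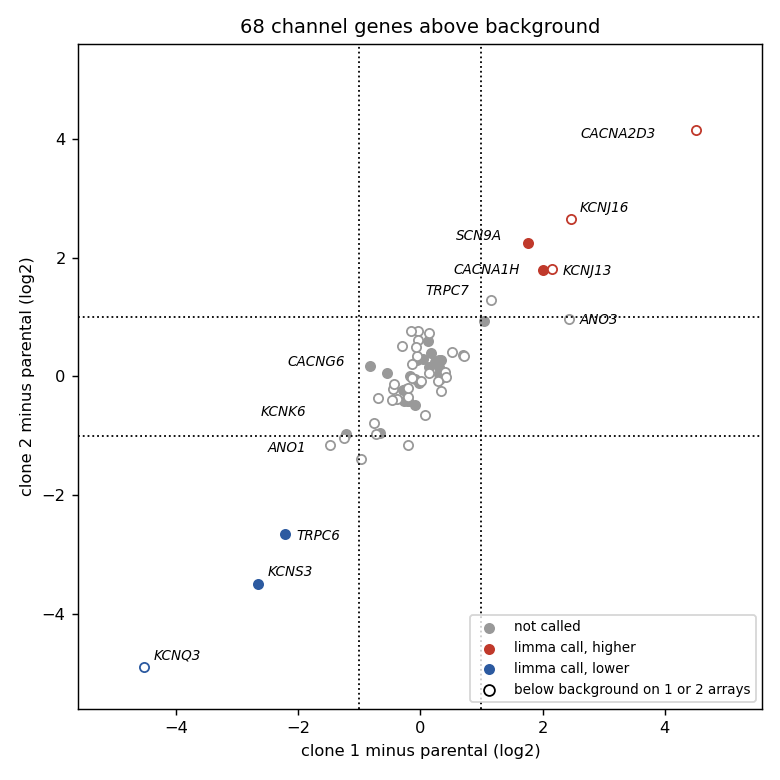
Difference from parental cells (log2) in clone 1 (horizontal axis) and clone 2 (vertical axis) for the 68 detected members; both axes share the parental array. Red and blue mark genes that limma called higher or lower, open circles are below background on 1 or 2 arrays, and dotted lines mark 2-fold. CACNA2D3 and KCNQ3 lie at the ends and most members cluster near 0.

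Probes of the same gene gave a further view. Of 17 members with at least 2 probes above background, 15 had differences of the same sign on the brightest and the second probe, the exceptions being CLCN3 and KCNH2, which lay near 0 on both. Of the called members, 5 had such a second probe. KCNS3, SCN9A and CACNA1H moved on both probes, while KCNQ3 and KCNJ16 were near 0 on the second.

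**Figure D4:**
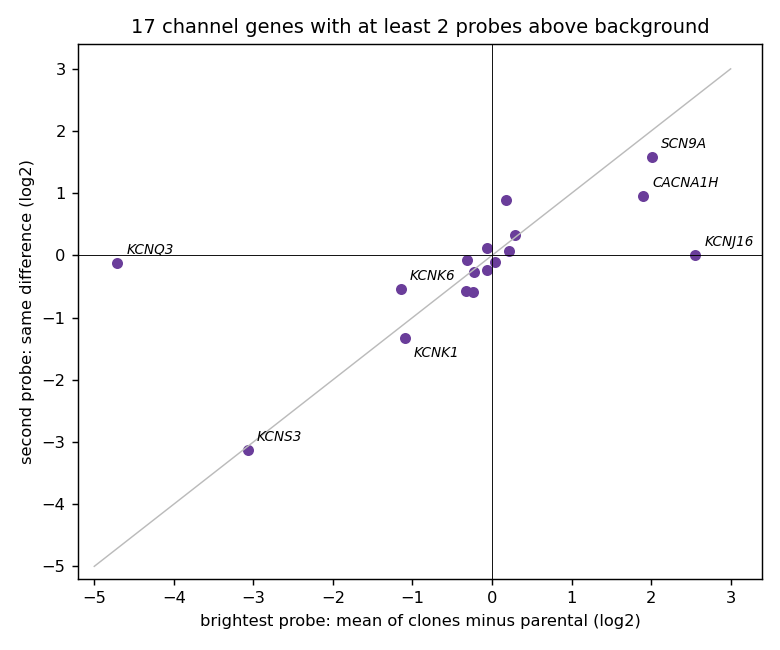
Mean of the clones minus parental cells (log2) on the brightest probe (horizontal axis) and on the second probe (vertical axis) for 17 members with at least 2 probes above background; the grey line marks equal values. KCNS3 lies on the line at -3.07 and -3.13, while KCNQ3 and KCNJ16 lie far from it, with second-probe values of -0.12 and 0.0095.

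Promoters of the called members were set side by side to see whether they share a base composition. The 250 bases before the annotated start of 4 called genes, each with a single start in RefSeq (GRCh38.p14), are given 5′ to 3′, with each CG dinucleotide, the site of DNA methylation, in capitals.
CACNA2D3, chr3:54122302-54122551, plus strand: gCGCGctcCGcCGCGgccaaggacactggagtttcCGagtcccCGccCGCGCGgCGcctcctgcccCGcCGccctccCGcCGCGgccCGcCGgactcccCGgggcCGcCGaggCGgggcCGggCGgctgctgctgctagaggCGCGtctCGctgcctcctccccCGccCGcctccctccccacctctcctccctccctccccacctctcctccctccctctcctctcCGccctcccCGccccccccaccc
SCN9A, chr2:166375945-166376194, minus strand: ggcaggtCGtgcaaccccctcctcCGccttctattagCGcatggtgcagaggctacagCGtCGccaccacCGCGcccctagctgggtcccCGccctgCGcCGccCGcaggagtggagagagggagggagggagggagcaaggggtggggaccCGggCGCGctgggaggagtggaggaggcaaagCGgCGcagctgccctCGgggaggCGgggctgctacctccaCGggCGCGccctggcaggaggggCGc
KCNJ13, chr2:232776566-232776815, minus strand: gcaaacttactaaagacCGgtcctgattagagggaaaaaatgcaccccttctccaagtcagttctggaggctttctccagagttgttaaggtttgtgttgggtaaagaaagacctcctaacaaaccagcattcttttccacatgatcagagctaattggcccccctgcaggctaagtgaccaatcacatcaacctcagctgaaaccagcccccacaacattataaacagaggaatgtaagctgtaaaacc
TRPC6, chr11:101584008-101584257, minus strand: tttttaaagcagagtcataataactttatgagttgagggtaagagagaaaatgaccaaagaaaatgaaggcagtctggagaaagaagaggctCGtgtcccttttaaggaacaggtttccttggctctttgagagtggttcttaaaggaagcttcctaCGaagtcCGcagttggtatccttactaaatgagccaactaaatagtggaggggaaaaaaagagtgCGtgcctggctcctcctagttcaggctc
CACNA2D3 had 31 CG dinucleotides and a GC content of 80.8%, and SCN9A 22 and 74.0%. KCNJ13 had 1 and 45.2%, and TRPC6 4 and 43.2%. Genes that rose thus included both CG-rich and CG-poor promoters.

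Of the 167 members, 128 matched the promoter table, with 196 starts. A promoter was counted as CG-rich where GC content was at least 55% and the observed over expected CG ratio at least 0.65. On this count 39.6% of all 35116 promoters were CG-rich and 34.2% of the members' promoters. The share was 37.4% of the 91 promoters of detected members and 31.4% of the 105 of silent ones. By gene, where any CG-rich start counts, 30 of 55 detected members (54.5%) had such a start, as did 30 of 73 silent ones (41.1%). The count by gene favours genes with more starts, and its share over all genes was not taken. The called members had 9 promoters from 6 genes, with more than 1 start each for KCNJ16 and KCNS3. No promoter was matched for CACNA1H and KCNQ3. The E-box CAGGTG, on either strand, stood in none of the 9 and in 17.5% of all promoters. The AP-1 motif TGANTCA stood in 1 of the 9, a KCNJ16 start, and in 6.57% of all.

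Other channels and channel partners, 95 genes from a separate list of which 91 were on the array, were read as well. This list was chosen with earlier results of these data known, so its shares of calls cannot serve as a rate for comparison. Limma called 1 higher and 6 lower of the 56 detected (1.79% and 10.7%), where 2.67% and 3.08% of all genes were called. Among the called, KCTD12 entered only through the clones, and TMC4, TMC5 and CNGA1 only through parental cells. These 4 therefore had to differ. SCNN1A, the alpha subunit of the epithelial sodium channel, read 13.04 in parental cells against 6.88 in clone 1 and 7.85 in clone 2. It fell 51.0-fold (log2 -5.67, SE 0.45, limma adjusted p = 0.00645), and SCNN1B and SCNN1G were silent. TMC4 and TMC5, of the transmembrane channel-like family, were at least 4.14-fold and 2.17-fold lower, with both clones below background. TMC6 read 7.90, 5.77 and 5.26, with clone 2 below background, and was 4.38-fold lower in clone 1 and at least 5.52-fold lower in clone 2 (limma adjusted p = 0.0218, from the signals as read).

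CLIC3, a chloride intracellular channel protein, fell 3.75-fold (limma adjusted p = 0.0336), and CNGA1, a cyclic nucleotide-gated pore, at least 1.98-fold (adjusted p = 0.0473). KCTD12, an auxiliary protein of GABA-B receptors, rose at least 2.69-fold (adjusted p = 0.0286) on 1 probe, its other probe being below background on all arrays. FXYD2, which modulates the sodium pump, read 5.46, 8.70 and 7.28 and was 5.75-fold higher without a call (adjusted p = 0.0964). ITPR2, MCOLN2 and MCOLN3, calcium-permeable channels of internal membranes, were 2.46-fold, 2.21-fold and 2.85-fold higher and were not called (adjusted p = 0.0881, 0.0849 and 0.0713). ITPR3, the brightest of these internal channels, lay the other way, at 11.82, 10.78 and 10.87, a fold of 1.99 that was not called (adjusted p = 0.116). RYR1 was at least 1.36-fold lower, with both clones below background, and was not called either. CFTR, the chloride channel of airway epithelium, and the bestrophins BEST1, BEST2, BEST3 and BEST4 were below background on all arrays.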

How the data were processed

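The authors deposited linear intensity values, not normalized, of 48803 probes on 3 arrays (1 parental, 2 resistant, grouped by the labels), without detection p-values. RNA was biotin-labelled, per the labels' protocols. Bead-summary software: not given in the sources used here. A second deposited table, the authors' processed intensity values, is linear with medians of 59.6, 59.7 and 59.7 and served as an alternative.

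Background was corrected with normexp (offset 16), followed by log2 and quantile normalization. Detection needed a one-sided p under 0.01 against the mode of each array's dim probes, with the SD of the values below that mode. Probes were named from the platform annotation, updated by Entrez ID through RefSeq (28098 with 1 gene, 13 with several, 20692 not listed). Genes were fitted with limma 3.58.1 in R 4.3.3 (lmFit, eBayes) over 11914 genes, parental against resistant. Fits and p-values used the normalized signals as read, those below background included. "At least" folds set a group below background to each array's lowest signal above background, or the probe's own where higher. The fit was tested on simulated data. The number of arrays limits the precision, and the p-values treat the clones as independent.

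Members and lists were chosen with earlier results of these data known. Named genes were those called, 2-fold off in both clones or 2-fold apart, and the brightest of each role; other members were named for their role.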

Additional observations from a re-analysis of the deposited data

Results flagged for a closer look

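CACNG6 moved in opposite directions in the clones: it was 0.82 below parental cells in clone 1 (a log2 difference of -0.82) and 0.18 above them in clone 2, a gap of 1.00 between the clones on the log2 scale. The difference was not tested, since each clone has 1 array.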

How the results depend on the processing

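The number of members called higher was 5, or 3 with a background offset of 50 and 2 with probes above background on all 3 arrays, where fewer genes could enter. By normalized signal, members at least 2-fold higher in both clones were 6, or 2 with that filter. Those at least 2-fold lower were 5, or 3 with an offset of 50, with no background correction and with the authors' value table, and 2 with that filter. Members 2-fold apart between clones were 2, or 1 with an offset of 50, no background correction, median scaling, the authors' value table, that filter or the mean of a gene's probes. With 1 clone left out, 6 to 8 members were 2-fold higher and 6 to 7 lower. That count asks for 2-fold in the remaining clone alone, which is easier to meet than 2-fold in both. Detected members ranged from 56 at a detection p under 0.001 to 85 under 0.05. CACNA2D3, CACNA1H, KCNS3 and TRPC6 were called under every alternative that included them, and KCNJ13, SCN9A, KCNJ16 and KCNQ3 under all but 1 each, with the values given above; for KCNJ16 and KCNQ3 the second probe enters by construction, and for the others the cause was not tested. No named difference changed sign under these alternatives; with 1 clone left out, no called one did. Across all genes, median scaling moved the median to -0.081 in clone 1 and -0.080 in clone 2. No paired analysis was possible because parental cells have 1 array. The number of arrays and, for dim members, signal near background limit these values.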
